A study of Mus musculus with 74 samples.

Results

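Lung metastases (Lung met) were compared with primary mammary tumors (PT) of the SEAGN PyMT-F1 cross, taking every row of the gene table deposited for that cross. The table held 17404 rows. Both group means were given for 17351 of them and none for the other 53. A gene symbol stood on 14667 rows with values, and the 2684 rows with values but no symbol were kept apart. Of the rows with a symbol, 13436 had a mean over both tissues of at least 10 in the authors' normalized units and are called all genes from here on, while 1231 lay below that level. A member of a gene list that is high in 1 tissue alone can pass such a level, so the counts below cover the members past it and not every member of a list.

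The series held 74 samples of mammary tumor models, 6 of them labelled by title as SEAGN PT and 6 as SEAGN Lung met. The titles gave the same 6 animals for both tissues. The animals were female F1 progeny of a male FVB/N MMTV-PyMT mouse and a female SEA/GnJ mouse, so that every animal carried the PyMT transgene and was heterozygous between both strains. They were harvested at humane endpoint, and their age was not given in the sources used here. PyMT, the polyomavirus middle T antigen, was driven by the mouse mammary tumor virus promoter, which acts mainly in mammary epithelium. All PTs of 1 animal were combined before fragments were taken, whereas whole metastases were used. The tissue in each title matched the tissue field, although the source name of many PyMT-F1 samples did not match that field. The genotype field gave SEA/GNJ for only 4 of these 12 samples, BALB/NJ for 5 and AKR/J for 3. The strain of the samples was taken from the titles. Which samples entered the authors' group means could not be checked, here or for the BALB cross below. Because no value of a single sample was analysed, no result could be given without the samples whose genotype field differed. RNA came from bulk tissue, so tumor cells and every neighbouring cell entered the same library.

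Each gene had 1 normalized mean per tissue, the authors' least-squares mean over the animals. The difference between tissues is given as the log2 quotient of Lung met over PT, positive where Lung met was higher, and is a description of those 2 means. The spread between animals and the depth of each library are unknown here, so no test was made and nothing below separates a difference from the spread between animals. The summed means came to about 6987140 in Lung met and 6833240 in PT, with 14.2% and 14.6% of it in the 20 highest rows. The values are not per transcript length, so an order of levels between genes cannot be read from them.

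A lung metastasis grows among alveoli, which are lined by flat type 1 cells for gas exchange and by cuboidal type 2 cells that secrete surfactant, and which are wrapped in capillaries. A mammary tumor grows instead in a fat pad with fibroblasts, adipocytes and, below it, body wall muscle. Carcinoma cells of either site share the luminal and basal gene programs of the mammary gland, while fibroblasts lay down most of the collagen of a tumor. Milk protein genes mark secretory differentiation of the mammary epithelium.

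Most genes differed little between the tissues. Of all genes, 9674 (72.0%) had means within 25% of each other, the percentage being taken of the smaller mean throughout, and these held 81.4% of the summed mean level. The median log2 quotient was 0.03 and the quartiles were -0.15 and 0.19, with 54.6% of genes on the higher side in Lung met. Small differences leaned the same way as the median. Of the genes within 25%, 56.1% were higher in Lung met, against 52.8% of the 1956 genes between 25% and 1.5-fold, 48.1% of the 1016 genes between 1.5 and 2-fold and 46.2% of the 578 genes between 2 and 4-fold. Among the 212 genes at least 4-fold apart the share was 55.2%.

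Counted upward from each step, 1906 genes (14.2%) were at least 25% higher in Lung met and 1856 (13.8%) at least 25% lower. At 1.5-fold the counts were 873 (6.5%) higher and 933 (6.94%) lower. At 2-fold, 384 genes (2.86%) were higher and 406 (3.02%) lower, and at 4-fold 117 (0.871%) and 95 (0.707%). These shares are the background for every list that follows. They depended on level, as 5.79% of the 4543 genes with a mean between 10 and 100 were at least 2-fold higher and 6.36% at least 2-fold lower, against 1.41% and 1.38% of the 7524 genes between 100 and 1000. Within 25% lay 54.4% of the former and 80.5% of the latter.

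**Figure D1:**
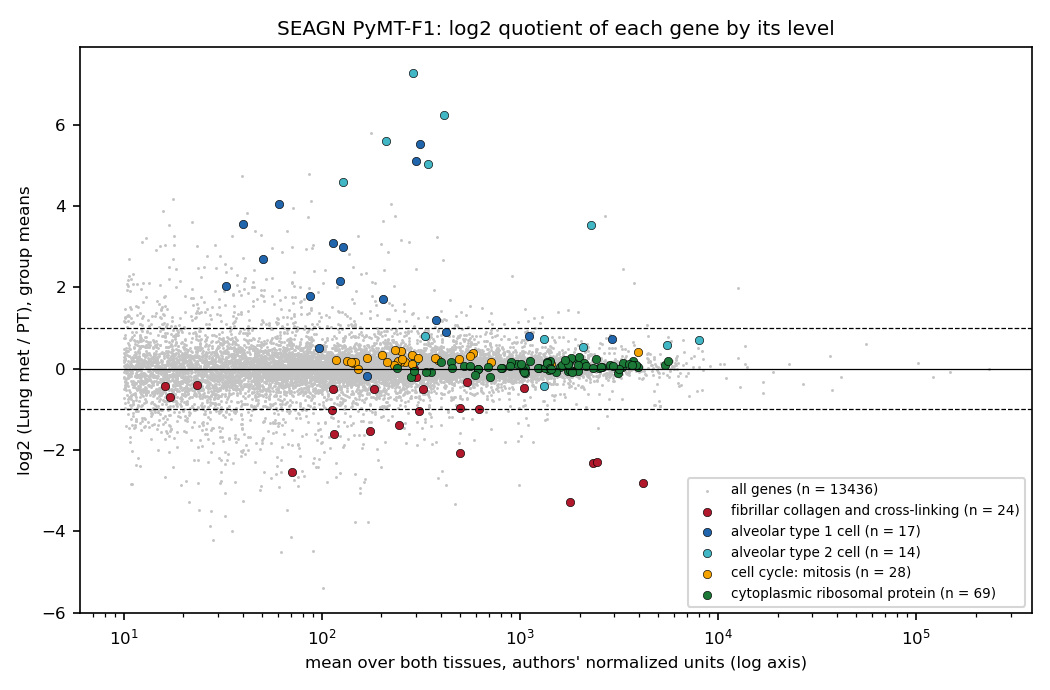
Each point is a gene, with its mean over both tissues in the authors' normalized units on a log axis and the log2 quotient of Lung met over PT on the vertical axis. Dashed lines mark 2-fold, gray points are all 13436 genes, and the colored lists show alveolar genes mostly above the upper line, collagen genes below 0, and mitosis and ribosomal protein genes close to 0.

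The 12 genes highest in Lung met, among those with a mean of at least 50, were mostly genes of alveolar epithelium. The first was Lamp3, a membrane protein of the lamellar bodies in which type 2 cells store surfactant, with a mean of 577 in Lung met against 3.70 in PT (log2 quotient 7.28). It was followed by Lyz1, a lysozyme, at 820 against 10.9 (log2 quotient 6.24), and by Chil3, a chitinase-like protein of alveolar macrophages, at 349 against 6.27 (log2 quotient 5.80). Sftpd, surfactant protein D, stood at 411 against 8.53 (log2 quotient 5.59). Clic5 and Ager, both made by type 1 cells, stood at 611 against 13.2 (log2 quotient 5.53) and at 579.8 against 16.6 (log2 quotient 5.12). Hc, complement component 5, was 665 against 20.2 (log2 quotient 5.04), and Napsa, the aspartic protease that processes surfactant protein B, was 247 against 10.1 (log2 quotient 4.61). The homeobox gene Hopx, another type 1 cell gene, stood at 115 against 6.95 (log2 quotient 4.05), and the retinaldehyde dehydrogenase Aldh1a1 at 166 against 9.57 (log2 quotient 4.12). Not known as lung cell markers were the sodium channel subunit Scn3b at 167 against 5.99 (log2 quotient 4.80) and the kallikrein-related peptidase Klk10 at 422 against 25.2 (log2 quotient 4.06).

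The 12 genes lowest in Lung met held several genes of fibroblasts and matrix. Lum, the small proteoglycan lumican that spaces collagen fibrils, was 4.73 in Lung met against 198 in PT (log2 quotient -5.39). Col12a1, a collagen that decorates fibrils, was 334 against 3261 (log2 quotient -3.29), and Chad, the cartilage protein chondroadherin, was 19.9 against 273 (log2 quotient -3.78). The collagenase Mmp13 stood at 7.71 against 172 (log2 quotient -4.48), Serpinf1, which encodes the secreted protein PEDF, at 33.8 against 279 (log2 quotient -3.05), and Fndc1 at 36.2 against 275 (log2 quotient -2.92). Pi16, a marker of fibroblasts around vessels, stood at 14.3 against 108 (log2 quotient -2.91). Others had roles in nerve or muscle, namely the teneurin Tenm3 at 5.25 against 119.5 (log2 quotient -4.51), the axon growth protein Dpysl5 at 7.46 against 132 (log2 quotient -4.15) and Ttn, the giant sarcomere protein titin, at 86.1 against 859 (log2 quotient -3.32). The receptor tyrosine kinase Erbb4, which binds neuregulins, was 11.0 against 122 (log2 quotient -3.46), and Bpifb5 was 23.3 against 321 (log2 quotient -3.78).

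**Figure D2:**
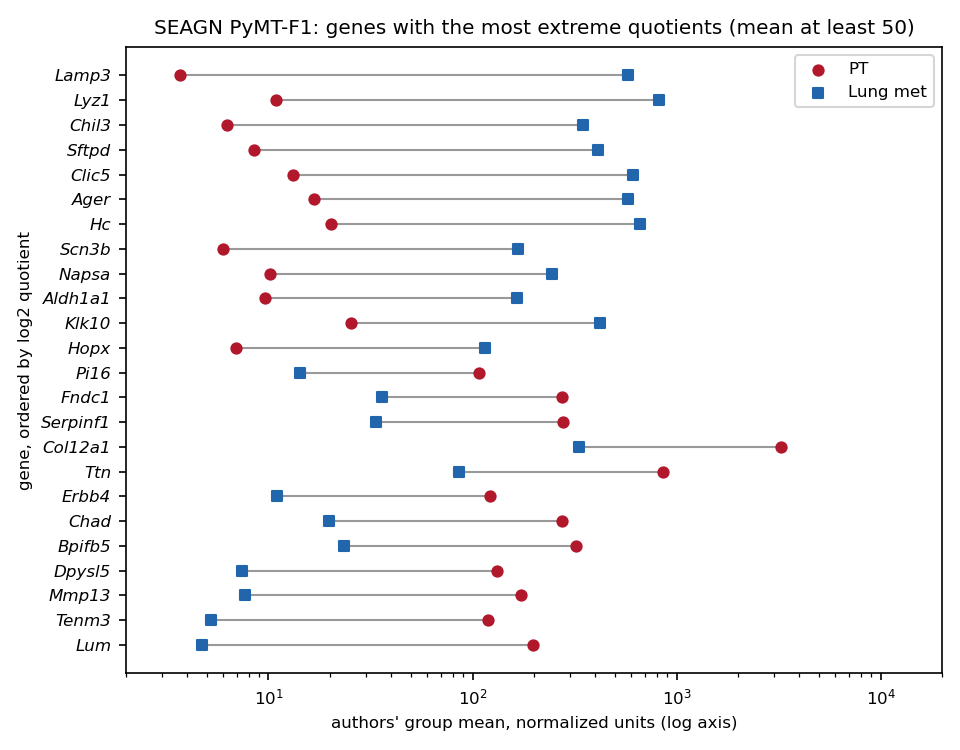
Group means of the 12 genes with the highest and the 12 with the lowest log2 quotient (mean over both tissues at least 50), PT as circles and Lung met as squares, on a log axis in the authors' normalized units. The upper genes run from Hopx at 6.95 in PT and 115 in Lung met to Lamp3 at 3.70 and 577, and the lower genes end with Lum at 198 in PT and 4.73 in Lung met.

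To describe the differences by biological group, 52 gene lists were used, 21 of cell types and 31 of processes. The median log2 quotient of a list was within 25% for 33 of the 52, at least 25% higher for 13 and at least 25% lower for 6. At 2-fold, 4 lists were higher and 3 lower. The lists held 106 (27.6%) of the genes at least 2-fold higher and 73 (18.0%) of those at least 2-fold lower, so most of the genes past 2-fold belonged to none of them.

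**Figure D3:**
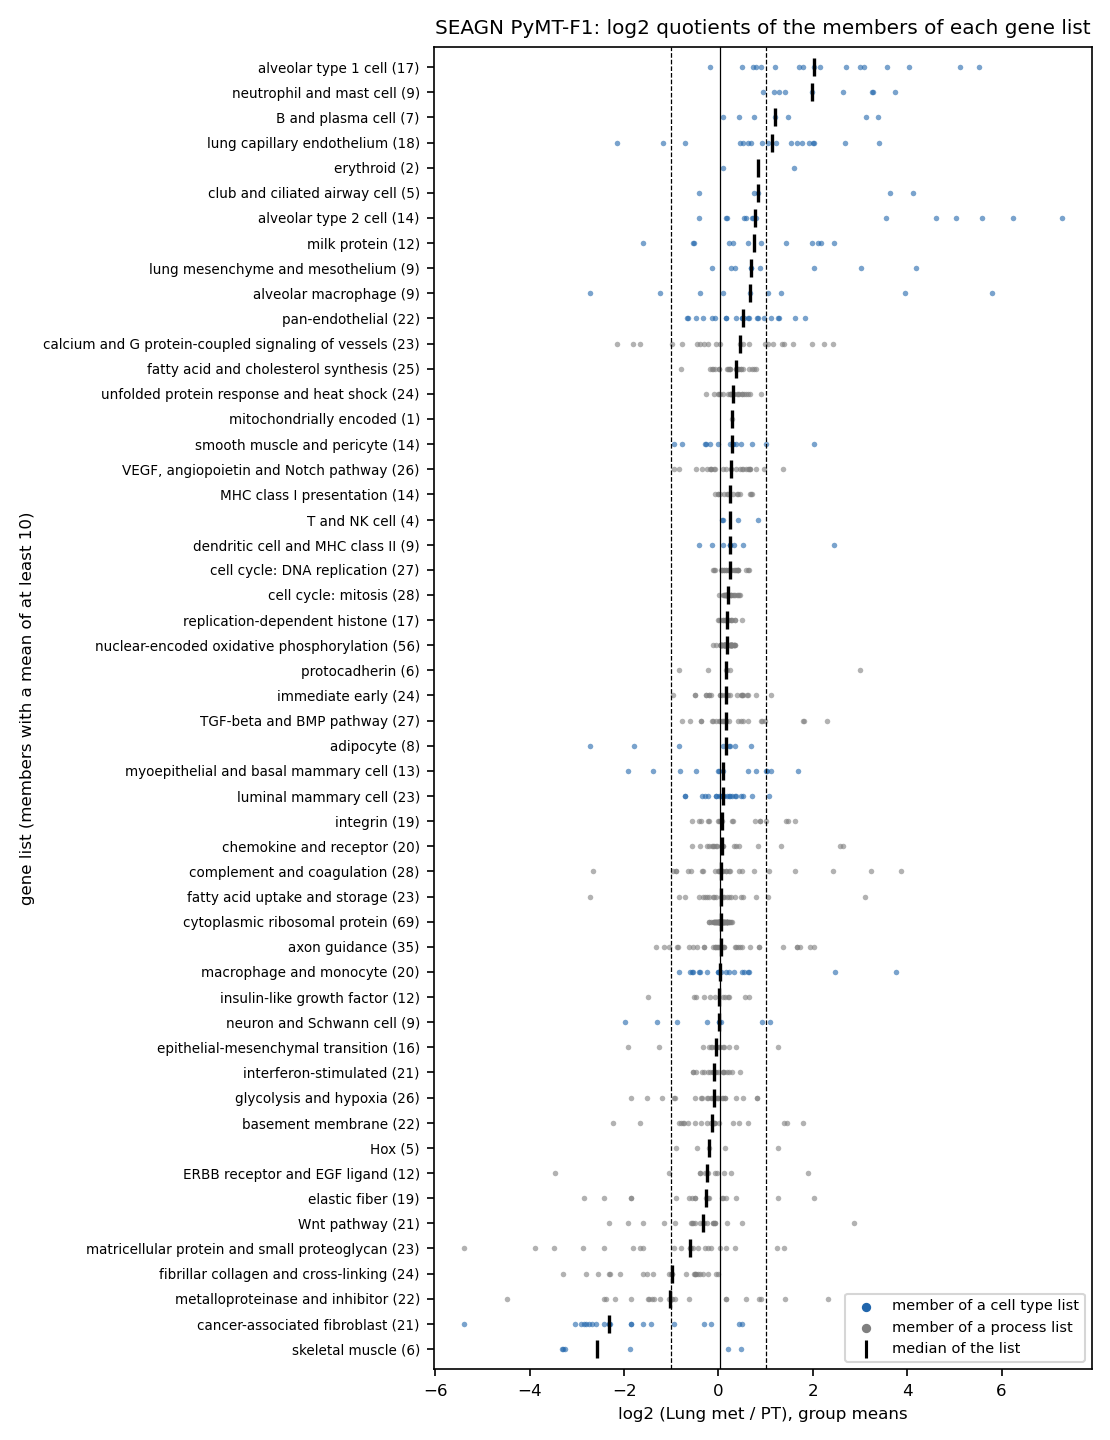
Each row is a gene list with the number of members past the level of 10, points are members, the short bar is the median, dashed lines mark 2-fold and the solid line is the median of all genes. Alveolar type 1 cell and neutrophil lists lie farthest to the right, with medians of 2.03 and 1.98, and the skeletal muscle and cancer-associated fibroblast lists farthest to the left, with medians of -2.57 and -2.32.

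Many genes of alveolar epithelium were far higher in Lung met. In the type 1 cell list, 12 of 17 members were at least 2-fold higher and none at least 2-fold lower, with a median of 2.03. Its summed level was 9016 in Lung met and 4096 in PT. The members were not alike, however. Those named above were at least 4-fold higher, whereas the water channel Aqp5 was 3647 in Lung met against 2195 in PT (log2 quotient 0.73), and Emp2, a tetraspan membrane protein, was 1417 against 815 (log2 quotient 0.80). Podoplanin, Pdpn, which fibroblasts and lymphatic endothelium also make, was 114 against 80.4 (log2 quotient 0.51), and Igfbp2 was 159 against 179 (log2 quotient -0.17). Bulk tissue cannot tell fewer cells of a type from less RNA per cell, here or in any list below.

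In the type 2 cell list 11 of 14 members were at least 25% higher, 1 was at least 25% lower and 2 lay within 25%. Of 14 members, 6 were at least 2-fold higher and all of these were also at least 4-fold higher. Besides those named above they included the sodium phosphate cotransporter Slc34a2, named after its value was seen, at 4186 in Lung met against 359 in PT (log2 quotient 3.54). Scd1, a fatty acid desaturase, was 9983 against 6144 (log2 quotient 0.70), and the chitinase-like Chil1 was 6625 against 4426 (log2 quotient 0.58). The ETS factor Etv5 was 1138 against 1516 (log2 quotient -0.41), Slc39a8, a metal transporter, was 153 against 136 (log2 quotient 0.16), and the fatty acid binding protein Fabp5 was 315 against 276 (log2 quotient 0.19). Sftpc, Sftpb, Sftpa1 and Nkx2-1, which define type 2 cells, were not analysed here.

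Airway genes were represented by 5 members past the level. Cyp2f2, a cytochrome P450 of club cells, was 378 in Lung met against 30.6 in PT (log2 quotient 3.63). Haptoglobin, Hp, was 708 against 395 (log2 quotient 0.84), Tppp3 was 74.7 against 44.3 (log2 quotient 0.75) and Foxj1, the master factor of motile cilia, was 28.4 against 37.9 (log2 quotient -0.42). The club cell gene Scgb1a1 was not analysed here. Thus a club cell gene was far higher in Lung met while the cilia factor was not. Of the 20 genes in the lung mesenchyme list, 10 had no values and 1 lay below the level. Among the 9 past it, 3 were at least 2-fold higher. Tbx5, a T-box factor of the lung bud mesenchyme, was 33.6 against 1.85 (log2 quotient 4.18). Fgf10, a growth factor for the lung epithelium, was 27.2 against 3.34 (log2 quotient 3.03). Both passed the level through Lung met alone. Mfap4, a protein of elastic microfibrils, was 370.2 against 91.0 (log2 quotient 2.02). Npnt and Itga8, a matrix ligand and its integrin receptor chain, were 2486 against 1952 (log2 quotient 0.35) and 915 against 501 (log2 quotient 0.87). These lung lists moved with tissue beside every result below, and their part in those results was not tested.

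Endothelial genes were mostly higher in Lung met, in the general list and in that of lung capillaries. The pan-endothelial list had a median of 0.53, with 5 of 22 members at least 2-fold higher and none at least 2-fold lower. Cdh5, the cadherin of endothelial junctions, was 643 in Lung met against 359 in PT (log2 quotient 0.84), and Flt1, a VEGF receptor, was 458 against 356 (log2 quotient 0.36). Sox17, an arterial transcription factor, was 55.8 against 15.6 (log2 quotient 1.84), Vwf, von Willebrand factor, was 219 against 71.2 (log2 quotient 1.62) and Icam2 was 30.9 against 12.6 (log2 quotient 1.29). On the other side were Nos3, the endothelial nitric oxide synthase, at 19.7 against 31.5 (log2 quotient -0.67), Mmrn2 at 69.7 against 109.8 (log2 quotient -0.66) and the lymphatic VEGF receptor Flt4 at 59.4 against 83.0 (log2 quotient -0.48).

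In the lung capillary list 10 of 18 members were at least 2-fold higher and 2 at least 2-fold lower, with a median of 1.14. Tmem100, a membrane protein downstream of BMP signaling in endothelium, was 83.6 in Lung met against 7.96 in PT (log2 quotient 3.39). Calcrl, the receptor for adrenomedullin, was 709 against 110.4 (log2 quotient 2.68), and Cldn5, a claudin of endothelial tight junctions, was 73.1 against 18.0 (log2 quotient 2.02). The phosphatase Ptprb was 837 against 289 (log2 quotient 1.54). Against these, the endothelin receptor Ednrb was 28.4 against 126 (log2 quotient -2.15), Fibin was 16.3 against 37.0 (log2 quotient -1.18) and Rtn1 was 141 against 231 (log2 quotient -0.72). Genes that relay signals in vessel walls also spread both ways, with 8 of 23 members at least 2-fold higher and 3 at least 2-fold lower. The natriuretic peptide clearance receptor Npr3 was 154 against 28.9 (log2 quotient 2.42), and both subunits of the nitric oxide receptor guanylate cyclase were higher, Gucy1b3 at 67.7 against 14.3 (log2 quotient 2.24) and Gucy1a3 at 138 against 34.8 (log2 quotient 1.98). Ace, the angiotensin-converting enzyme, was 2607 against 1810 (log2 quotient 0.53), whereas the adenylate cyclases Adcy8 and Adcy5 were 44.5 against 156 (log2 quotient -1.81) and 47.8 against 151 (log2 quotient -1.66).

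Among blood cells, genes of neutrophils were higher throughout. All 9 members past the level were at least 25% higher and 8 at least 2-fold, with a median of 1.98. Ngp, a granule protein, was 159 in Lung met against 11.9 in PT (log2 quotient 3.74), Retnlg was 63.6 against 6.56 (log2 quotient 3.28), and S100a9 and S100a8, which form the calprotectin pair, were 276 against 28.9 (log2 quotient 3.26) and 281 against 147 (log2 quotient 0.94). The granulocyte growth factor receptor Csf3r was 140.4 against 58.0 (log2 quotient 1.27) and the cytokine Il1b was 50.6 against 22.4 (log2 quotient 1.18). Ltf, lactoferrin, was 20200 against 5133 (log2 quotient 1.98), and it is also a milk protein. Mast cell genes of the list had no values here.

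Macrophage genes lay on both sides, with 8 of 20 members within 25%, 6 at least 25% higher and 6 at least 25% lower. The list had a median of 0.03, and C1qa, C1qb and Csf1r (named after their values were seen), a pair of complement chains and the growth factor receptor of macrophages, had log2 quotients of 0.01, -0.01 and -0.0094. Far above them stood Gpnmb, a glycoprotein of lipid-laden macrophages, at 436 in Lung met against 32.2 in PT (log2 quotient 3.76), and lysozyme, Lyz2, which type 2 cells make too, at 5643 against 1023 (log2 quotient 2.46). Lyz1 and Lyz2 are near-identical copies, so the split of reads between them is uncertain. Apoe was 4193 against 4058 (log2 quotient 0.05), and Spp1, osteopontin, was 13390 against 20310 (log2 quotient -0.60). The scavenger receptor Cd163 was 83.2 against 149 (log2 quotient -0.84) and the chemokine receptor Ccr2 64.9 against 96.1 (log2 quotient -0.57). Of the alveolar macrophage list, 4 of 9 members were at least 2-fold higher and 2 at least 2-fold lower. Atp6v0d2, a proton pump subunit, was 135 against 8.77 (log2 quotient 3.94). Fabp4, which adipocytes make as well, was 19.0 against 126 (log2 quotient -2.73), and the keratin Krt79 was 37.7 against 89.5 (log2 quotient -1.25).

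Antibody genes were higher in Lung met. Igkc, the kappa light chain, was 122 in Lung met against 11.7 in PT (log2 quotient 3.39). Jchain, which joins antibody units and passed the level through Lung met alone, was 22.3 against 2.56 (log2 quotient 3.12). In contrast Pou2af1, a B cell coactivator, was 12.7 against 11.9 (log2 quotient 0.10) and Xbp1, which secretory epithelium also uses, 9534 against 7011 (log2 quotient 0.44). Only 4 T and NK cell genes passed the level and none was 2-fold apart, with Ccl5 at 15.4 against 8.65 (log2 quotient 0.84) and Cd4 at 19.0 against 14.3 (log2 quotient 0.41). Of the antigen presentation genes, the list of dendritic cells and MHC class II had a median of 0.24, with the invariant chain Cd74 at 2232 against 1568 (log2 quotient 0.51), while Clec9a, a receptor of cross-presenting dendritic cells, was 31.2 against 5.70 (log2 quotient 2.45). The class I list had 12 of 14 members higher, 11 once centred on the median of all genes, and none 2-fold apart, including B2m, the light chain of class I molecules, at 4559 against 2887 (log2 quotient 0.66), and the immunoproteasome subunit Psmb9 at 85.8 against 53.0 (log2 quotient 0.70). The chemokine list showed 3 of 20 members at least 2-fold higher, namely the neutrophil receptor Cxcr2 at 85.6 against 13.8 (log2 quotient 2.63), the decoy receptor Ackr2 at 55.9 against 9.35 (log2 quotient 2.58) and the chemokine Ccl6 at 270.1 against 108 (log2 quotient 1.33).

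Genes of fibroblasts and of fibrillar collagen were mostly lower in Lung met. In the cancer-associated fibroblast list, 16 of 21 members were at least 2-fold lower and none at least 2-fold higher, with a median of -2.32. Its summed level was 5629 in Lung met and 22799 in PT. The fibrillar collagens Col1a1 and Col3a1 were 1047 in Lung met against 7343 in PT (log2 quotient -2.81) and 820.2 against 4053 (log2 quotient -2.31). Ctsk, a collagen-degrading protease, was 72.9 against 80.9 (log2 quotient -0.15), and Pdgfra, a growth factor receptor found on most fibroblasts, was 432 against 318 (log2 quotient 0.44). So the fibroblast receptor Pdgfra was not lower while the collagens were.

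Every one of the 24 members of the fibrillar collagen and cross-linking list was lower in Lung met, 21 at least 25% and 11 at least 2-fold, with a median of -0.98. The 6 lowest log2 quotients of the list belonged to collagen chains, such as Col5a3 at 20.8 in Lung met against 121 in PT (log2 quotient -2.54). The 3 members within 25% were Serpinh1, the collagen chaperone of the endoplasmic reticulum, at 1830 against 1899 (log2 quotient -0.05), Bmp1, which trims procollagen, at 292 against 294 (log2 quotient -0.0083), and P4ha1, a prolyl hydroxylase, at 276 against 320.1 (log2 quotient -0.21).

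Other matrix genes were mixed. In the basement membrane list 2 of 22 members were at least 2-fold lower and 3 at least 2-fold higher. Col15a1, a collagen that anchors basement membranes to stroma, was 67.0 in Lung met against 315 in PT (log2 quotient -2.23) and the linker Nid2 was 52.0 against 166 (log2 quotient -1.67). The main network chain Col4a1 was 2956 against 3106 (log2 quotient -0.07) and the proteoglycan agrin, Agrn, 2782 against 2980 (log2 quotient -0.10). Higher were Col4a4, a chain of the alveolar and glomerular networks, at 135 against 38.9 (log2 quotient 1.79), and Lama3, a laminin chain of epithelial hemidesmosomes, at 344 against 127 (log2 quotient 1.44). The elastic fiber list split likewise, as Fbln2 and Fbln1, which are fibulins, were 242 against 1746 (log2 quotient -2.85) and 29.9 against 160.4 (log2 quotient -2.42), Eln, elastin itself, was 1826 against 757 (log2 quotient 1.27), and Ltbp3, which holds latent TGF-beta, was 1979 against 3068 (log2 quotient -0.63).

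Of the matricellular proteins and small proteoglycans, 8 of 23 were at least 2-fold lower and 2 at least 2-fold higher. Tnn, tenascin N, was 4.50 in Lung met against 50.7 in PT (log2 quotient -3.49), and Nov, a CCN family protein, was 3.47 against 51.2 (log2 quotient -3.88). Thbs1, thrombospondin 1, was 3860 against 5618 (log2 quotient -0.54). The leucine-rich proteoglycans Ogn and Prelp went the other way, at 139.5 against 53.6 (log2 quotient 1.38) and 432 against 182 (quotient 2.38). Metalloproteinases and their inhibitors had 11 of 22 members at least 2-fold lower, among them Adam12 at 29.6 against 158 (log2 quotient -2.42), Adamts5, an aggrecanase, at 19.0 against 99.2 (log2 quotient -2.38) and the inhibitor Timp2 at 809.8 against 1919 (log2 quotient -1.24). Mmp12, the elastase of macrophages, was 263 against 52.7 (log2 quotient 2.32) and Mmp9, the gelatinase of neutrophils, 57.0 against 21.5 (log2 quotient 1.41).

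Skeletal muscle genes were mostly lower in Lung met and fat genes mixed. In the skeletal muscle list 4 of 6 members were at least 2-fold lower, including Acta1, skeletal actin, at 7.67 in Lung met against 72.8 in PT (log2 quotient -3.25), Ryr1, the calcium release channel, at 3.95 against 38.5 (log2 quotient -3.29), and nebulin, Neb, at 30.0 against 111 (log2 quotient -1.89). The other 2 were higher, desmin, Des, at 45.9 against 32.8 (log2 quotient 0.49) and myoglobin, Mb, at 54.5 against 47.6 (log2 quotient 0.20). Of the 8 adipocyte genes past the level, Fabp4 and Cidea, a lipid droplet protein of brown fat at 4.83 against 16.8 (log2 quotient -1.80), were lower, whereas Pnpla2, a triglyceride lipase, was 830.1 against 715 (log2 quotient 0.22) and Thrsp 1339 against 1136 (log2 quotient 0.24). Adipoq, which defines adipocytes, was not analysed here. Smooth muscle and pericyte genes had a median of 0.28. The lowest was Postn, which is also in the fibroblast list, at 1466 against 2837 (log2 quotient -0.95). Rgs5, a pericyte gene, was 334 against 567 (log2 quotient -0.77). Mylk, myosin light chain kinase, was 731 against 362 (log2 quotient 1.02), and the highest was Cox4i2 at 16.9 against 4.15 (log2 quotient 2.03). Genes of nerve sheath had a median of 0.0038, and myelin basic protein, Mbp, had a log2 quotient of 0.05.

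Luminal mammary genes were mostly at similar levels in both tissues. The list had a median of 0.10, with 14 of 23 members within 25% and 1 member 2-fold apart. Cdh1, E-cadherin, was 4180 in Lung met against 4324 in PT (log2 quotient -0.05), and Ehf, an epithelial ETS factor, was 6024 against 6012 (log2 quotient 0.0029). The hormone receptors Esr1 and Pgr were 95.0 against 156 (log2 quotient -0.71) and 18.4 against 30.1 (log2 quotient -0.71). Spdef, a factor of secretory cells, was 200.3 against 95.6 (log2 quotient 1.07), Muc1 was 1851 against 1139 (log2 quotient 0.70) and the stem cell factor receptor Kit was 3555 against 2496 (log2 quotient 0.51). Basal genes spread more widely, with 4 of 13 members at least 2-fold higher and 2 at least 2-fold lower. Krt5, a basal keratin, was 674 against 209 (log2 quotient 1.69), Trp63, the p63 factor of basal epithelium, was 530 against 244 (log2 quotient 1.12), and Col17a1, a hemidesmosome collagen, was 197 against 96.9 (log2 quotient 1.03). The stem cell markers Lgr5 and Lgr6 were lower, at 9.87 against 37.4 (log2 quotient -1.92) and 603 against 1587 (log2 quotient -1.40), and Sox10 was 3878 against 3868 (log2 quotient 0.0038).

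Several milk protein genes stood higher in Lung met. Of 12 members, 5 were at least 2-fold higher and 1 at least 2-fold lower. The casein Csn2 was 504 in Lung met against 92.2 in PT (log2 quotient 2.45), the casein Csn1s2a 66.5 against 14.8 (log2 quotient 2.16) and Lalba, alpha-lactalbumin, 6083 against 1417 (log2 quotient 2.10). The casein Csn3 stood at 68070 against 44310 (log2 quotient 0.62) and transferrin, Trf, at 40830 against 32850 (log2 quotient 0.31). Whey acidic protein, Wap, went the other way, at 136 against 414 (log2 quotient -1.61), as did Mfge8, the milk fat globule protein, at 6834 against 9842 (log2 quotient -0.53), and the milk lipase Cel, at 64.3 against 93.5 (log2 quotient -0.54).

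Genes of growth and housekeeping differed by small amounts that mostly had the same sign. All 28 mitosis genes were higher in Lung met, yet only 6 by at least 25% and none by 2-fold, with a median of 0.20. Mki67, the proliferation marker Ki-67, was 4481 in Lung met against 3388 in PT (log2 quotient 0.40). The mitotic kinases Plk1 and Cdk1 were 271 against 198 (log2 quotient 0.46) and 289 against 215 (log2 quotient 0.43), and Aurkb was 153 against 153 (log2 quotient 0.0052). DNA replication genes had a median of 0.24 with 24 of 27 higher, led by Rrm2, a ribonucleotide reductase subunit, at 496 against 317 (log2 quotient 0.65), while E2f1 was 71.1 against 77.4 (log2 quotient -0.12). Of 17 replication-dependent histone genes, 16 were higher and 14 lay within 25%. The histone gene Hist1h1a was 421 against 296 (log2 quotient 0.51), and such genes lack a poly(A) tail and have near-identical copies, so that reads may be shared among them. With quotients centred on the median of all genes the members higher in Lung met numbered 27 for mitosis, 24 for DNA replication and 15 for histones.

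Ribosomal protein genes were the most even of these. All 69 were within 25%, from Rps21 at -0.20 to Rpl27a at 0.29 on the log2 scale, with a median of 0.05. Of the 69, 50 were higher in Lung met but only 39 once centred on the median of all genes, so their shared sign was weak. Nuclear-encoded subunits of oxidative phosphorylation had a median of 0.17, and 54 of 56 were higher, with and without centring on all genes, none by 2-fold. Among them Atp5b, the catalytic chain of ATP synthase, was 5230 in Lung met against 4277 in PT (log2 quotient 0.29), and Cox7a2, a subunit of cytochrome oxidase, 401 against 313 (log2 quotient 0.36). Among the 24 genes of the unfolded protein response and heat shock, 21 were higher (20 once centred) and 11 at least 25%. Hspa5, the chaperone BiP, was 8011 against 6642 (log2 quotient 0.27), Asns, asparagine synthetase, 445 against 239 (log2 quotient 0.90), and the inducible chaperone Hspa1b, which has a near-identical copy, 1242 against 787 (log2 quotient 0.66).

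Lipid synthesis genes leaned to Lung met, and a few hypoxia genes to PT. Of 25 genes of fatty acid and cholesterol synthesis, 13 were at least 25% higher, 1 was at least 25% lower and none was 2-fold apart. The sterol enzyme Msmo1 was 206 in Lung met against 119 in PT (log2 quotient 0.79), whereas Srebf1, a transcription factor for fatty acid synthesis genes, was 3702 against 6388 (log2 quotient -0.79). In the fatty acid uptake and storage list 12 of 23 members were higher and 11 lower, with a median of 0.05. Cd36, a transporter found on capillary endothelium and macrophages, was 491 against 57.0 (log2 quotient 3.11) and lipoprotein lipase, Lpl, 392 against 189 (log2 quotient 1.06), while Plin4, a lipid droplet protein, was 65.7 against 118 (log2 quotient -0.84) and the lipase Mgll 359 against 584 (log2 quotient -0.70). The glycolysis and hypoxia list had a median of -0.10, with 3 members at least 2-fold lower and none at least 2-fold higher. Those lower were Car9, the hypoxia-induced carbonic anhydrase, at 70.1 against 252 (log2 quotient -1.84), Adm, adrenomedullin, at 36.6 against 105 (log2 quotient -1.51), and Slc16a3, a lactate exporter, at 67.5 against 154 (log2 quotient -1.19). The glycolytic enzymes Ldha and Aldoa were on the other side, at 5650 against 3206 (log2 quotient 0.82) and 9287 against 6518 (log2 quotient 0.51). So was Ankrd37, the highest member of the list, at 32.76 against 18.55 (log2 quotient 0.82). Of the 26 members, 4 were at least 25% higher and 8 at least 25% lower.

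**Figure D4:**
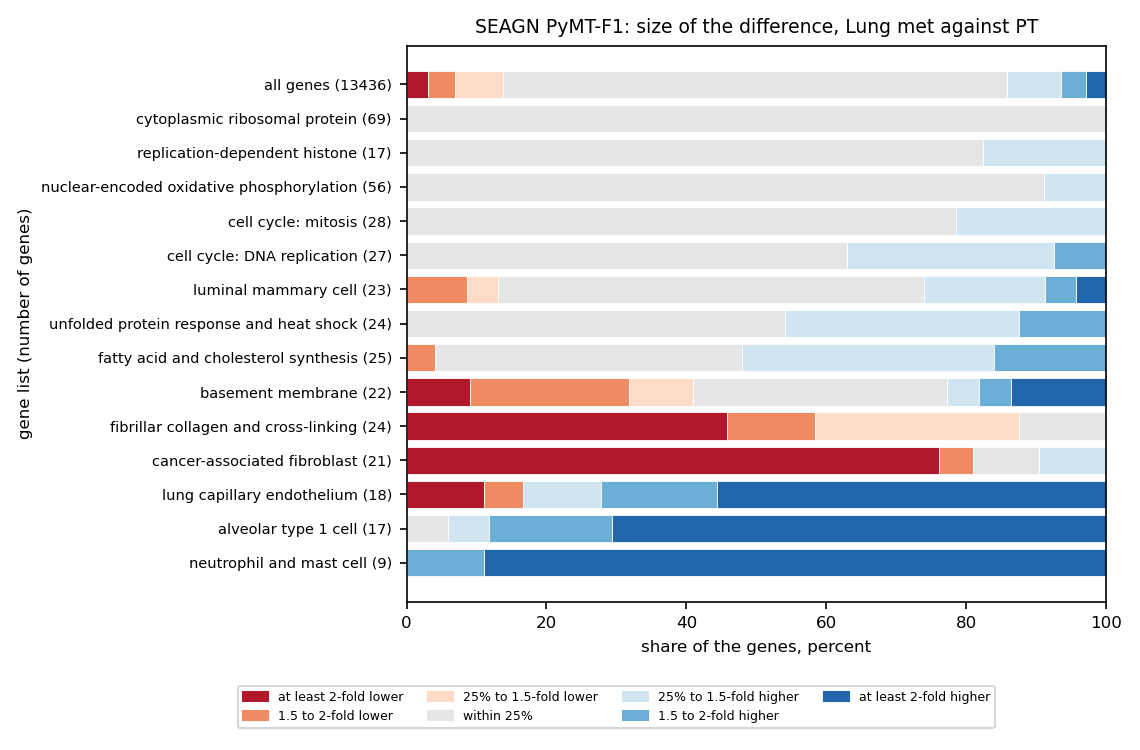
Share of genes in each class of difference, Lung met against PT, for all genes and 14 gene lists, with the number of genes in parentheses. Red shades are lower and blue shades higher in Lung met, and gray is within 25%. The growth and housekeeping lists are mostly gray and pale blue, while the fibroblast, alveolar type 1 cell and neutrophil lists are mostly dark. Of the collagen list, 11 of 24 genes are in the darkest red.

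Within the pathway lists of Wnt, TGF-beta, ERBB, VEGF and IGF signaling single genes lay far apart while the medians stayed within 25%, apart from the Wnt list at -0.32. That median lay just past 25%, and it was within 25% without a level (-0.305) and with a pseudocount of 10 (-0.299). In the Wnt list 4 of 21 members were at least 2-fold lower, among them the secreted inhibitor Sfrp2 at 30.1 in Lung met against 151 in PT (log2 quotient -2.32), the receptor Lgr5 at 9.87 against 37.4 (log2 quotient -1.92) and the ligand Wnt7b at 45.9 against 139.8 (log2 quotient -1.61), and Nkd1, an inhibitor that Wnt signaling induces, was 110.3 against 15.2 (log2 quotient 2.86). The coreceptor Lrp6 was 2640 against 2830 (log2 quotient -0.10). In the TGF-beta and BMP list no member was at least 2-fold lower and 3 of 27 were at least 2-fold higher, namely the ligands Bmp3 and Bmp4 at 62.1 against 12.6 (log2 quotient 2.30) and 55.7 against 15.9 (log2 quotient 1.81) and their binding protein Bmper at 31.5 against 9.16 (log2 quotient 1.78). The ligand Tgfb3 was 2937 against 2719 (log2 quotient 0.11) and the coreceptor Tgfbr3 537 against 916 (log2 quotient -0.77).

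Of the ERBB family, Erbb4 was described above, Egf was 43.5 in Lung met against 89.3 in PT (log2 quotient -1.04), and the neuregulin Nrg1 was 151 against 40.4 (log2 quotient 1.90), while Egfr and Erbb3 were 1395 against 1458 (log2 quotient -0.06) and 1339 against 1227 (log2 quotient 0.13). In the VEGF, angiopoietin and Notch list 1 of 26 members was 2-fold apart, the Notch target Heyl at 124 against 48.2 (log2 quotient 1.37). Notch1 was 4534 against 3007 (log2 quotient 0.59) and its ligand Jag1 141 against 270.3 (log2 quotient -0.94). Igfbp5, an IGF binding protein, was 107700 against 97320 (log2 quotient 0.15), Igfbp3 was 377 against 1058 (log2 quotient -1.49) and the ligand Igf1 290.2 against 184 (log2 quotient 0.65). Of the immediate early genes, Egr1 was 678 against 1313 (log2 quotient -0.95) and Btg2 988 against 458 (log2 quotient 1.11).

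Genes of epithelial-mesenchymal transition had a median near 0, at -0.04 over 16 members. Snai2, a repressor of E-cadherin, was 89.7 in Lung met against 37.3 in PT (log2 quotient 1.27), but Prrx1, a mesenchymal homeobox factor, was 53.6 against 202 (log2 quotient -1.91) and N-cadherin, Cdh2, 25.6 against 61.5 (log2 quotient -1.26). Fibronectin, Fn1, was 5732 against 4454 (log2 quotient 0.36). The complement and coagulation list had a median of 0.06, with 12 of 28 members within 25%. In it 5 members were at least 2-fold higher and 1 at least 2-fold lower. Thbd, the thrombomodulin of endothelium, was 348 against 64.7 (log2 quotient 2.43). F7, factor VII, was 29.4 against 2.00 (log2 quotient 3.88) and F10 23.4 against 2.50 (log2 quotient 3.22), and both passed the level through Lung met alone. The lowest was F13a1, a transglutaminase of macrophages, at 32.3 against 205 (log2 quotient -2.66), and complement C3 was 955 against 1771 (log2 quotient -0.89). In the axon guidance list 6 of 35 members were at least 2-fold higher and 3 at least 2-fold lower. The semaphorins Sema3e and Sema3a were 52.7 against 12.9 (log2 quotient 2.03) and 81.1 against 21.3 (log2 quotient 1.93), while Sema3b was 85.7 against 192 (log2 quotient -1.16) and the receptor Robo1 59.3 against 149 (log2 quotient -1.33). Of 19 integrins, 4 were at least 2-fold higher, among them the leukocyte chains Itgal at 108 against 34.8 (log2 quotient 1.63) and Itgb2 at 256 against 95.6 (log2 quotient 1.42). Pcdh17 was 125 against 15.6 (log2 quotient 3.00) in the protocadherin list.

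Of 30 Hox genes 8 had values and 5 passed the level. Hoxa5, which acts in lung development, was 27.2 in Lung met against 11.4 in PT (quotient 2.39), and Hoxb3 was 30.6 against 56.8 (log2 quotient -0.89). In the erythroid list Car2, a carbonic anhydrase that many cells make, was 388 against 129 (log2 quotient 1.59) and Alas2, the erythroid enzyme of heme synthesis, 61.0 against 56.9 (log2 quotient 0.10). The single mitochondrially encoded gene with values, mt-Nd6, was 954 against 784 (log2 quotient 0.28).

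The BALB PyMT-F1 cross had the same transgene in another strain, with 6 PTs and 6 Lung mets of its own animals, the strain again taken from titles, and a table normalized separately, so that its quotients are set beside those of SEAGN without a test of the difference. In BALB, 305 genes (2.27%) were at least 2-fold higher in Lung met and 285 (2.12%) at least 2-fold lower. Of 13166 genes past the level in both tables, 329 were at least 2-fold higher in SEAGN, and 155 of these were so in BALB, which is 47.1% of the SEAGN genes and 57.6% of the BALB genes. Another 6 were at least 2-fold lower in BALB. Among the 351 genes at least 2-fold lower in SEAGN, 137 were so in BALB (39.0% and 55.7%), and 4 were at least 2-fold higher. The side alone matched for 90.0% of the former, where 58.2% of all these genes were higher in BALB, and for 89.5% of the latter, where 41.8% of all were lower.

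By list, the alveolar, fibroblast and collagen lists had the same sign in both crosses. The type 1 cell list had medians of 2.03 in SEAGN and 1.78 in BALB over the same 17 genes, and the fibroblast list -2.32 and -1.76 over 21. The skeletal muscle list was lower still in BALB, at -4.24 against -2.57. Several other lists had medians of unlike sign over the same genes. Smooth muscle and pericyte genes stood at 0.28 in SEAGN and -0.36 in BALB, and MHC class I genes at 0.25 and -0.12. The Wnt list stood at -0.31 and 0.12, glycolysis and hypoxia at -0.10 and 0.25, and histones at 0.19 and -0.03. Interferon-stimulated genes had a median of -0.09 in SEAGN, none of 21 being 2-fold apart, and of -0.68 in BALB, where 3 were at least 2-fold lower. In SEAGN the antiviral effector Isg15 was 109 in Lung met against 159 in PT (log2 quotient -0.54) and the factor Irf7 844 against 794 (log2 quotient 0.09), with log2 quotients of -0.82 and -0.77 in BALB.

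Some milk protein genes had unlike quotients in the tables. Wap had a log2 quotient of -1.61 in SEAGN and 2.82 in BALB, and Cel of -0.54 and 2.25, whereas Lalba was higher in both, at 2.10 and 1.17, as was Ltf, at 1.98 and 2.27. Spdef stood at 1.07 in SEAGN and -2.48 in BALB, and Nrg1 at 1.90 and -0.82. The hypoxia gene Slc16a3 stood at -1.19 and 0.87, and Adm at -1.51 and 0.04. Among the leading genes, Lamp3 stood at 7.28 and 5.91, Sftpd at 5.59 and 5.72, Lum at -5.39 and -4.69, and Dpysl5 at -4.15 and -0.58. The alveolar and stromal genes of this set were thus far apart in both tables, and Dpysl5 in SEAGN more than in BALB.

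**Figure D5:**
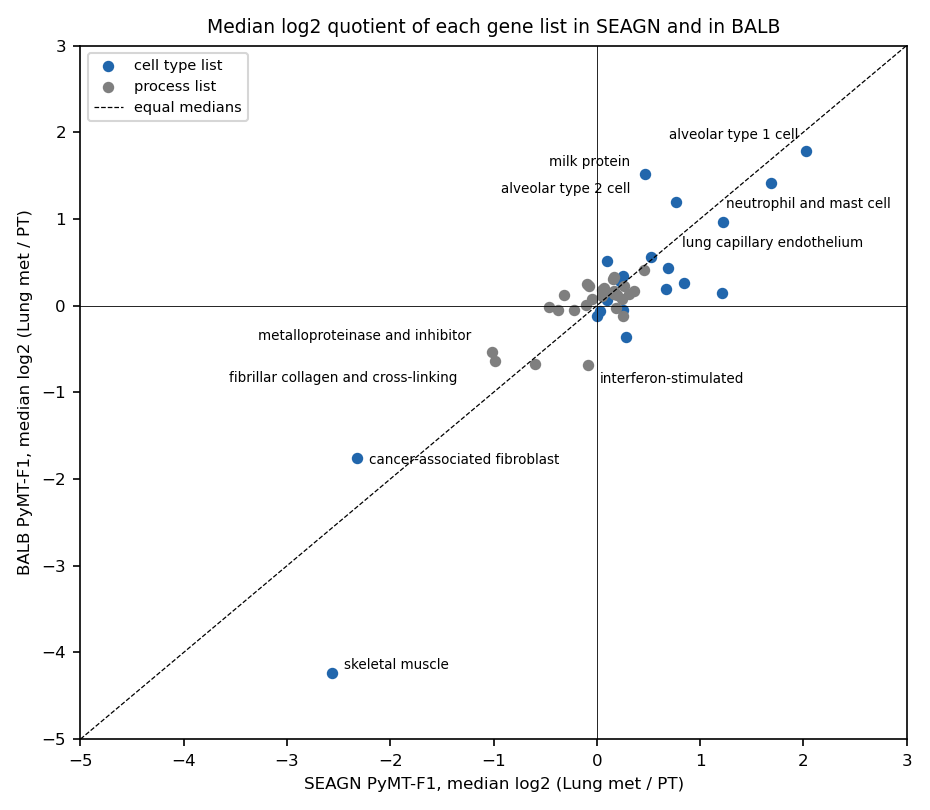
Median log2 quotient of Lung met over PT for each gene list with at least 3 members past the level in both tables, SEAGN on the horizontal and BALB on the vertical axis, over the same genes. Points on the dashed line have equal medians, the fibroblast list lies at -2.32 and -1.76 and the type 1 cell list at 2.03 and 1.78, and the interferon-stimulated list lies at -0.09 in SEAGN and -0.68 in BALB.

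Rows without a symbol leaned slightly the other way from all genes. Of them, 1965 passed the level of 10, with a median log2 quotient of -0.03 and 45.8% higher in Lung met. At least 2-fold higher were 24 (1.22%) and at least 2-fold lower 40 (2.04%). The row with the highest level among them, MGP_BALBcJ_G0040199, was 24800 in Lung met and 24320 in PT, a log2 quotient of 0.03.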

How the data were processed

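RNA-seq of SEAGN PT and Lung met (6 samples each) was analysed from the gene table the authors deposited. Per the labels, total RNA was extracted with Trizol and libraries were made with a stranded total RNA kit after ribosomal RNA depletion, while the methods name an mRNA kit. The submitters' processing notes name STAR 2.7.8a, DESeq2 and mm39, and the methods name Partek Flow with mm9 and mm10. The gene identifiers are those of the BALB/cJ annotation, so no coordinates are given. The authors deposited for each gene a normalized signal, the least-squares mean of each tissue, and how they normalized it is not given in the sources used here. Their table also holds a p-value, an FDR, a ratio and a signed fold change of their own comparison, which were not used. Of the 6 tables, that of BALB was set side by side and the other 4 were not used.

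From the 2 means the quotient Lung met over PT and its log2 were computed, without a pseudocount, for rows with a symbol and a mean over both tissues of at least 10. Counts past 25%, 1.5, 2 and 4-fold stand in for tests, as 1 mean per tissue gives no spread. The depth per sample is unknown, so no interval was computed. The 12 samples were grouped by title, but the means were taken as the authors labelled them. Which samples entered each mean could not be checked. The gene lists held 1265 entries and 1172 different symbols, of which 931 had values and 892 passed the level. A gene may stand in more than 1 list, and 7 symbols found on more than 1 row entered no list. Symbols of 35 members were matched to older ones through RefSeq synonyms, a step added after the files were seen. Members, lists and the comparison itself were chosen with earlier results of these data known.

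Genes named are the 12 highest and 12 lowest log2 quotients with a mean of at least 50, in each list the 3 highest, the 3 lowest and the 2 with the highest mean, and the row without a symbol with the highest mean, and others are marked as named after their values were seen. Some genes that this rule names are not reported here. Alternatives were no level, a level of 100, pseudocounts of 1 and 10, centring on the median, all rows, and leaving out the most extreme member of a list. The quotients and counts were tested on simulated data. Python 3.11.15, numpy 2.4.6, pandas 2.3.3 and matplotlib 3.10.9 were used.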

Additional observations from a re-analysis of the deposited data

How the results depend on the processing

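The count of genes at least 2-fold higher in Lung met moved from 384 to 121 with a level of 100 in place of 10, which leaves 8893 of 13436 genes, and that of genes at least 2-fold lower from 406 to 117. A pseudocount of 10 gave 259 genes at least 2-fold lower and 256 at least 2-fold higher. The other alternatives for these counts, namely no level, a pseudocount of 1, centring on the median of all genes and the inclusion of rows without a symbol, stayed within 1.5 times. Of 258 list medians under an alternative, 8 moved by more than 25% and 4 changed sign, all in 3 lists whose medians lay within 0.05 of 0 on the log2 scale. The skeletal muscle list moved most, from -2.57 to -1.70 with a pseudocount of 10, and to -1.89 without a level or without its farthest member, so that under these alternatives the fibroblast list at -2.00, -2.32 and -2.31 was the lower. With a pseudocount of 10 the type 1 cell list at 1.62 lay below the neutrophil list at 1.97. The median of the B and plasma cell list fell from 1.21 to 0.66 with the same pseudocount. Matching without older symbols was chosen after the data were seen and moved the median of the vessel signaling list from 0.46 to 0.04. The shares of SEAGN genes also past 2-fold in BALB became 46.0% and 37.1% with a level of 100. No paired analysis was possible because the table holds 1 mean per tissue, although the titles name the same animals in both, and for the same reason no animal could be left out. The unknown spread and depth limit every value, and least of all is known for genes near the level of 10.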

Other observations

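The genes of this section were all named after their values were seen, and, where not said otherwise, they belong to none of the gene lists. Some collagens outside the fibrillar list were lower in Lung met as well. The collagen VI chains Col6a2 and Col6a3, which form beaded filaments around cells, were 267 in Lung met against 902 in PT (log2 quotient -1.76) and 442 against 1525 (log2 quotient -1.79). Col8a1, a short-chain collagen of vessel walls, was 103 against 665 (log2 quotient -2.69) and Col25a1 152 against 506 (log2 quotient -1.74). The BALB log2 quotients of these 4 genes were -1.55, -1.49, -2.49 and -2.40. The long noncoding RNAs Meg3 and Rian, which neighbour each other in an imprinted domain, stood at 26.8 against 185 (log2 quotient -2.79) and 19.4 against 119 (log2 quotient -2.62), and Meis1, a homeobox factor, at 121 against 690.4 (log2 quotient -2.52).

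Higher in Lung met were some genes known from lung tissue, such as Cbr2, a carbonyl reductase, at 1505 in Lung met against 312 in PT (log2 quotient 2.27), the flavin monooxygenase Fmo2 at 688 against 73.2 (log2 quotient 3.23), the sodium channel subunit Scnn1a at 290.3 against 66.3 (log2 quotient 2.13) and the transcription factor Gata6 at 28.8 against 3.50 (log2 quotient 3.04). Single genes that stratified epithelium makes lay on both sides, without a list or a count. The keratin Krt17, a member of a list above, had a log2 quotient of -0.81, while the keratin Krt15 was 76.7 against 21.7 (log2 quotient 1.82), dermokine, Dmkn, was 239 against 34.0 (log2 quotient 2.82), the giant cadherin Fat2 was 586 against 154 (log2 quotient 1.93), Trp73, a relative of p53, was 16.9 against 3.96 (log2 quotient 2.09), and the peptidase Klk6 was 31.2 against 2.69 (log2 quotient 3.54). Gata2, a factor of blood and endothelial cells, was 356 against 42.7 (log2 quotient 3.06). The heavy chain of mucosal antibodies, Igha, was 89.6 against 9.14 (log2 quotient 3.29), near Igkc and Jchain of the B and plasma cell list at log2 quotients of 3.39 and 3.12.

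A Riken gene was among the 6 genes at least 2-fold higher in SEAGN and at least 2-fold lower in BALB. The Riken gene 2310057J18Rik was 5019 in Lung met against 369.5 in PT (log2 quotient 3.76) in SEAGN and had a log2 quotient of -4.77 in BALB, and the difference between the crosses was not tested. Among the rows without a symbol and with a mean of at least 50, the lowest log2 quotient was that of MGP_BALBcJ_G0034925, with 4.79 in Lung met against 373.5 in PT (log2 quotient -6.28), and -6.00 in BALB. The highest was that of MGP_BALBcJ_G0016155, with 124 against 10.5 (log2 quotient 3.56), and 3.06 in BALB.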
